A study of Mus musculus with 3 samples.

Results

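The Hox-cluster microRNAs miR-10 and miR-196 were followed in mouse liver through ischemia and reperfusion. They comprise every listed row whose name begins with mmu-miR-10a, mmu-miR-10b, mmu-miR-196a or mmu-miR-196b (mmu stands for mouse), from either arm of the hairpin. This gave 9 of the 1908 mature microRNAs in the count files, 4 of miR-10 and 5 of miR-196. The liver samples came from male C57BL/6J mice aged 8 to 10 weeks, an inbred laboratory strain, that were fasted before surgery. Sham mice had the abdomen opened without clamping. WI (warm ischemia) mice had the blood supply to the left and median liver lobes clamped. IR (ischemia-reperfusion) mice had the clamp then released so that blood returned. Each group had 1 library, so no difference below has a replicate check, and every test compares 2 libraries and not 2 conditions. Sham livers were taken without an added wait to match reperfusion, so reperfusion and time since surgery cannot be told apart.

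MicroRNAs are short RNAs that repress messenger RNAs, chiefly through pairing of bases 2 to 8, the seed. The Hox genes encode transcription factors that set position along the body axis, and the miR-10 and miR-196 hairpins lie among them. MiR-196 is known for cutting the Hoxb8 messenger RNA, and miR-10 arms are known to act on Hox messenger RNAs and, in endothelium, on inflammatory signalling. From each hairpin a 5p and a 3p arm can be cut, and commonly 1 of them is kept.

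The mature sequences are shown because the paralogs differ by so little that the counting rests on single bases. Capitals mark the seed.
miR-10a-5p: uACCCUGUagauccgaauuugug
miR-10b-5p: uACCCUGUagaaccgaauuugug
miR-10a-3p: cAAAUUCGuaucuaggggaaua
miR-10b-3p: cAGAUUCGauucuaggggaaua
miR-196a-5p: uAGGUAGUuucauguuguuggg
miR-196b-5p: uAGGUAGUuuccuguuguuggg

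Counted from 1 at the 5′ end, with the base of the first-named arm given first, miR-10a-5p and miR-10b-5p differed by U12A and miR-196a-5p and miR-196b-5p by A12C. Both pairs thus share a seed, ACCCUGU for miR-10 and AGGUAGU for miR-196, and no other listed microRNA with a RefSeq sequence had either seed. The 3p arms of miR-10 differed by A3G, U9A and A10U, the first of them within the seed. A read whose base 12 is changed by error to that of the paralog matches the paralog exactly. It can be counted under the paralog's name, so the split between miR-10a-5p and miR-10b-5p is uncertain to that extent. As miR-10a-5p had far more reads, such errors would mostly add to miR-10b-5p. The genome alignment allowed 1 mismatch, and the setting of the counting step was not given.

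All hairpins of the group lie in Hox clusters. Mir10a is on chromosome 11 (96178479 to 96178588, plus strand, NCBIM37) in an untranslated exon of an annotated Hoxb4 transcript. Mir10b is on chromosome 2 (74564127 to 74564194, plus strand) in introns of Hoxd4 and Hoxd3. Mir196a-1 is on chromosome 11 (96126478 to 96126579, plus strand), outside other genes and 6.29 kb before Hoxb9. Mir196a-2 is on chromosome 15 (102803781 to 102803865, plus strand) between Hoxc10 and Hoxc9, in an intron of the non-coding transcript Gm20398. Mir196b is on chromosome 6 (52180080 to 52180164, minus strand) in an untranslated exon of Hoxa9. The 5 hairpins were therefore spread over all 4 Hox clusters, each on the strand of its neighbouring Hox genes. Each mature sequence matched the genome at 1 position, except miR-196a-5p, which matched at its 2 hairpins.

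**Figure D1:**
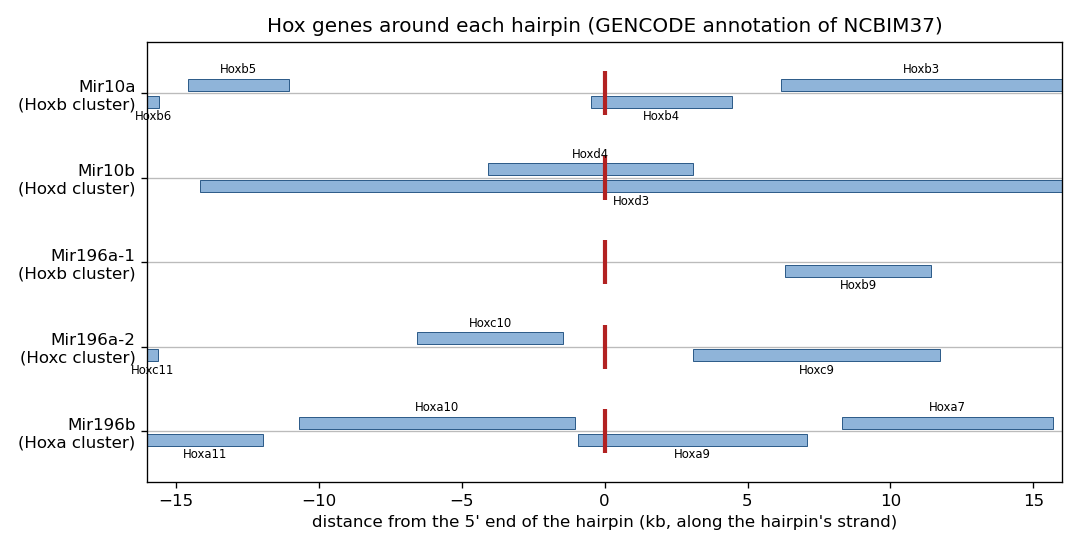
Hox genes (blue boxes) within 16 kb of each of the 5 hairpins (red marks), with distance in kb from the 5′ end of the hairpin along its own strand; boxes are set above and below the line only to keep them apart. Mir10a, Mir10b and Mir196b fall inside Hox gene bounds, and Mir196a-1 and Mir196a-2 fall between Hox genes.

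Values given in threes follow the order Sham, WI, IR. The totals of microRNA reads were 3844133, 5064014 and 3784539. The smallest level told from none was set at 3 reads, equal to 0.758, 0.617 and 0.785 CPM (reads per 1000000 of the scaled library). Intervals are 95% exact ones unless named otherwise and, like these floors, cover counting error only. MiR-122, the defining hepatocyte microRNA, held 17055, 20121 and 16431 CPM over both arms.

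The 9 arms split into 3 that were measured above the floor in every library and 6 that never were. The most abundant, mmu-miR-10a-5p, had 148200, 190149 and 158494 reads. It took 3.86% (3.84 to 3.87), 3.75% (3.74 to 3.77) and 4.19% (4.17 to 4.21) of all microRNA reads and ranked 6, 7 and 6 among all microRNAs. It was thus counted more often than miR-122-5p, which took 1.64%, 1.83% and 1.55% of reads. Read counts of different microRNAs also carry the ligation preferences of the library, so such orders are of reads and not of molecules.

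The Hoxd copy, mmu-miR-10b-5p, had 1834, 3411 and 3602 reads and ranked 72, 65 and 56. It was lowest in Sham and highest in IR, and stood far below its paralog in every library.

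The 3p arms were scarce. The Hoxb copy, mmu-miR-10a-3p, had 70, 82 and 69 reads, or 0.0472% (0.0368 to 0.0596), 0.0431% (0.0343 to 0.0535) and 0.0435% (0.0339 to 0.0551) of the reads of its hairpin. These intervals overlap, so no change of arm use was detectable. The Hoxd copy, mmu-miR-10b-3p, had 0, 0 and 1 reads. Beside 1834 reads of the 5p arm in Sham a count of 0 allows a share of up to 0.201%, and beside 3411 in WI up to 0.108%. The single read in IR is a share of 0.0278% (0.00070 to 0.155). These limits include the share found for miR-10a-3p, so a difference in arm use between both hairpins was not detectable at this depth.

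MiR-196 was at the edge of detection. MiR-196b-5p had 1, 2 and 2 reads, miR-196a-5p had 0, 1 and 0, and miR-196a-2-3p had 0, 0 and 1. MiR-196a-1-3p and miR-196b-3p had none in any library. All 5 arms together came to 1, 3 and 3 reads, whereas the 4 miR-10 rows summed to 150104, 193642 and 162166. No fold change is given for miR-196 or for miR-10b-3p, since these 6 arms lay at or under 3 reads throughout.

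**Figure D2:**
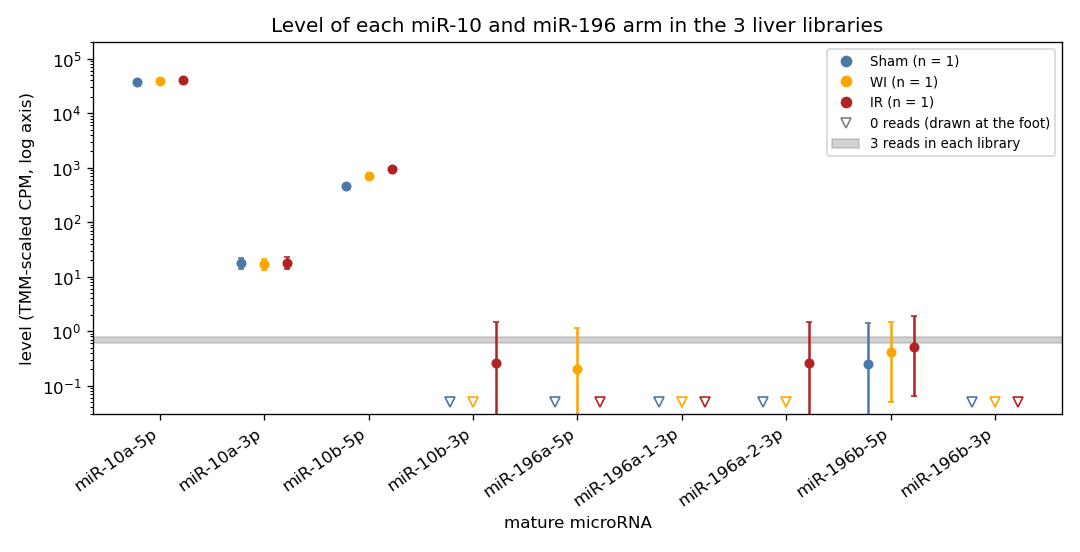
Level of each of the 9 arms (x axis) in TMM-scaled CPM on a log axis, for Sham, WI and IR (1 library each), with 95% exact Poisson intervals; open triangles at the foot stand for 0 reads and the grey band for 3 reads. MiR-10a-5p lies between 37424 and 41447 CPM, miR-10b-5p between 463 and 942, miR-10a-3p between 16.9 and 18.0, and the other arms below 1.

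The comparison of WI with Sham asks what differs after ischemia alone. MiR-10b-5p rose from 463 CPM in Sham to 701 in WI, a fold change of 1.51. On the log2 scale this was 0.60 (counting SE 0.042, Fisher's exact p = 4.19e-48, adjusted over all microRNAs tested 1.72e-46). The interval of the fold change, 1.43 to 1.60, spans the threshold of 1.5. With DESeq2 size factors the change was 0.55 on the log2 scale, with library totals 0.50 and with totals that leave out the 10 most abundant microRNAs 0.52, and in each case the call was lost. With genome-aligned totals it was 0.75 and was called. The exact test of edgeR called it when animals were assumed to vary with a coefficient of variation of 0.1 (p = 0.00426), and did not at 0.2 (p = 0.148).

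The other arms moved less. MiR-10a-5p had 37424 CPM in Sham and 39085 in WI, a difference of 0.063 on the log2 scale (counting SE 0.0050), which was beyond counting error but far below the threshold. It turned to -0.038 with library totals and to -0.020 when the 10 most abundant were left out of the totals, so its direction depends on the scaling. MiR-10a-3p had 17.7 CPM in Sham and 16.9 in WI (Fisher's exact p = 0.807, log2 interval -0.55 to 0.41).

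Of the 3 measurable arms, 1 was called in WI against Sham, and it was higher. Among all 782 microRNAs tested here 1.92% were called, 1.41% as higher in WI, and 45.7% were past the fold alone. Among the 88 microRNAs with at least 1000 reads in every library, a limit chosen after the values were seen, miR-10b-5p had the highest log2 fold change and was the only 1 called. The median log2 fold change was 0.063 over the 3 measurable arms, 0.046 over all microRNAs tested and 0.062 over the 88.

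IR was then compared with WI, which asks what differs once blood returns. MiR-10b-5p had 701 CPM in WI and 942 in IR, a fold change of 1.34 (1.28 to 1.41). On the log2 scale this was 0.43 (counting SE 0.034, Fisher's exact p = 4.55e-35, adjusted 9.45e-34), beyond counting error and below the threshold. MiR-10a-5p had 39085 and 41447 CPM, a difference of 0.085 (counting SE 0.0049). Scaling by the totals of genome-aligned reads, which shifts the median of all microRNAs to -0.32, gave 0.10 for miR-10b-5p and -0.24 for miR-10a-5p.

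No arm was called between IR and WI, where 9.25% of 789 microRNAs were called and 53.9% were past the fold alone. At an unadjusted p under 0.05, 2 of the 3 measurable arms differed between these libraries, beside 23.7% of all microRNAs tested and 69 of the 88 abundant ones. The remaining one, miR-10a-3p, had 16.9 CPM in WI and 18.0 in IR (log2 interval -0.39 to 0.58).

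The comparison of IR with Sham spans both stages. MiR-10b-5p rose from 463 CPM in Sham to 942 in IR, a fold change of 2.03 (1.92 to 2.15). On the log2 scale this was 1.02 (counting SE 0.041, Fisher's exact p = 3.18e-143, adjusted 1.54e-141). It was called under every scaling tried, from 0.86 with genome-aligned totals to 1.02 with TMM. Variation between animals was not measured. At an assumed coefficient of variation of 0.1 between animals the change was called by edgeR's exact test (p = 1.11e-06), and at 0.2 it was not (edgeR exact test p = 0.0139).

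MiR-10a-5p had 37424 CPM in Sham and 41447 in IR, a difference of 0.15 on the log2 scale (counting SE 0.0052). With genome-aligned totals it turned to -0.021. MiR-10a-3p had 17.7 and 18.0 CPM (Fisher's exact p = 0.933, log2 interval -0.47 to 0.53).

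Of the 3 measurable arms 1 was called in IR against Sham, as higher in IR, where 7.11% of 774 microRNAs were called, 5.68% as higher, and 51.2% were past the fold alone. Among the 88 abundant microRNAs 8 were called, 7 of them higher, and miR-10b-5p had the second highest log2 fold change. This comparison shares a library with each of the others, so the 3 results for miR-10b-5p are not independent.

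**Figure D3:**
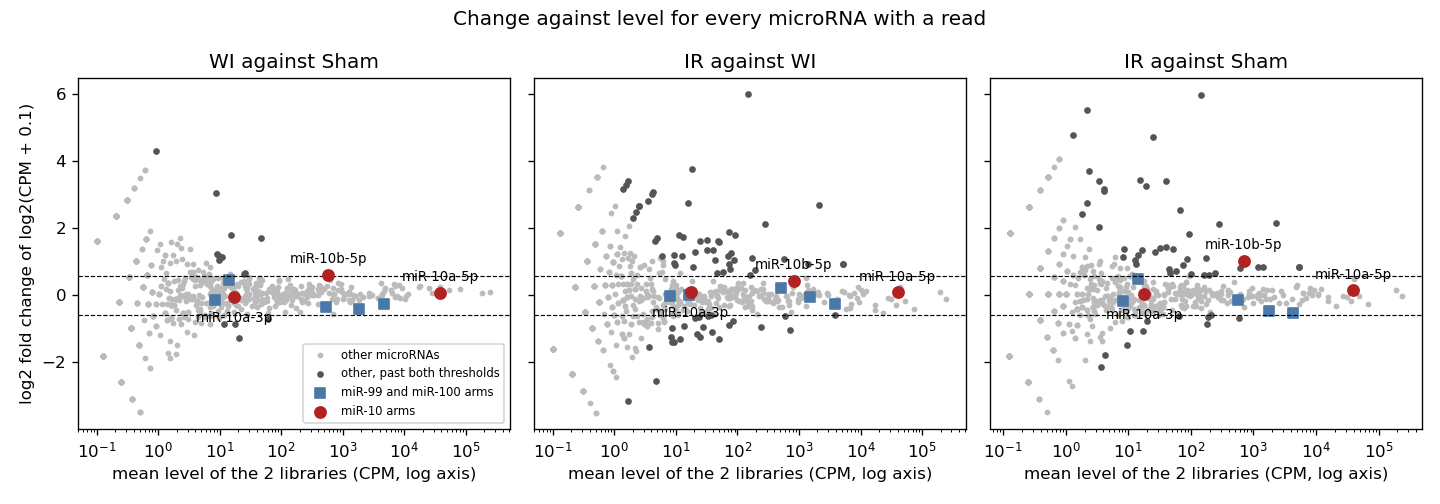
Log2 fold change of log2(CPM + 0.1) against the mean level of both libraries (CPM, log axis) for every microRNA with a read, in each of the 3 comparisons; red points are miR-10 arms and blue squares miR-99 and miR-100 arms, both shown only where their mean level exceeds 2 CPM, dark points other called microRNAs, and dashed lines the fold threshold of 1.5. MiR-10b-5p stands at the upper line in WI against Sham and above it in IR against Sham (1.02), and miR-10a-5p lies near 0 in all 3.

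A ratio of both 5p arms within a library is free of the scaling. For every 1000 reads of miR-10a-5p there were 12.4 (11.8 to 13.0), 17.9 (17.3 to 18.6) and 22.7 (22.0 to 23.5) reads of miR-10b-5p. The ratio was thus lowest in Sham and highest in IR, and no intervals overlapped. These intervals do not cover reads counted under the paralog's name through an error at base 12, nor differences in quality between the libraries. The study reports a lower share of small RNA reads aligned to the genome for IR than for Sham or WI. Whether this bears on the ratio was not tested. As a share of both 5p arms, miR-10a-5p held 98.8%, 98.2% and 97.8%.

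Relative to its paralog, miR-10b-5p had log2 differences of 0.54 between Sham and WI (95% counting interval 0.45 to 0.62), 0.34 between WI and IR (0.27 to 0.41) and 0.88 between Sham and IR (0.80 to 0.96), each higher in the later stage. The Hoxb copy outweighed the Hoxd copy by 80.8, 55.7 and 44.0 reads to 1. With both arms summed into 1 row the log2 change was accordingly small, 0.071 from Sham to WI, 0.091 from WI to IR and 0.16 from Sham to IR.

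**Figure D4:**
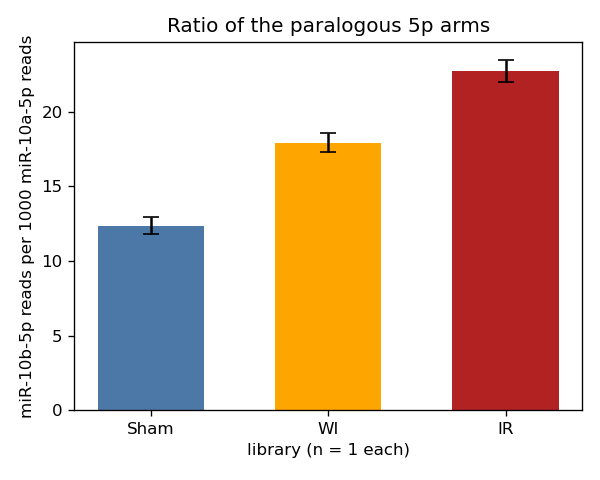
Reads of miR-10b-5p per 1000 reads of miR-10a-5p in the Sham, WI and IR libraries (bars, 1 library each), with 95% exact binomial intervals. The ratio was 12.4 for Sham, 17.9 for WI and 22.7 for IR.

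MiR-99a, miR-99b and miR-100 are relatives of miR-10 that lie outside the Hox clusters. Their 5p arms are shown because each carries the central stretch of 1 of the miR-10 5p arms, 1 base nearer the 5′ end. It stands behind a different seed (capitals).
miR-100-5p: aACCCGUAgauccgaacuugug
miR-99a-5p: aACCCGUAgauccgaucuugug
miR-99b-5p: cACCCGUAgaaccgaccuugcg

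The longest run shared by miR-10a-5p and miR-100-5p was GUAGAUCCGAA, which starts at base 7 of the former and base 6 of the latter. Between miR-10b-5p and miR-99b-5p it was GUAGAACCGA, with the same offset. The run was only 5 bases between miR-10a-5p and miR-99b-5p, and likewise between miR-10b-5p and miR-100-5p.

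The 5p arms of the relatives were lower than Sham where miR-10b-5p was higher, and both comparisons rest on the same Sham library. MiR-100-5p had 2064, 1550 and 1503 CPM, a log2 difference from Sham of -0.41 in WI and -0.46 in IR. MiR-99b-5p had 5028, 4224 and 3503 CPM, a difference of -0.25 and -0.52. MiR-99a-5p had 597, 466 and 540 CPM, a difference of -0.36 and -0.14. Between IR and WI, without the Sham library, the directions were mixed. There miR-99a-5p was higher in IR (0.21), as miR-10b-5p was (0.43), and miR-99b-5p was lower (-0.27). MiR-100-5p differed by -0.044 (Fisher's exact p = 0.0803). Of the 3p arms, miR-99a-3p was above Sham (0.45 and 0.47) and miR-99b-3p below (-0.14 and -0.17), all within counting error.

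All 3 of these 5p arms were lower than Sham in WI and in IR by more than counting error, under each of the 5 scalings tried, and by less than 1.5-fold with TMM. Of the 6 relatives, 5 had over 3 reads in every library, and none of them was called in any of the 3 comparisons, beside 1.92%, 9.25% and 7.11% of all microRNAs tested. At an unadjusted p under 0.05 the numbers of relatives were 3 for WI against Sham, 2 for IR against WI and 3 for IR against Sham, beside 18.0%, 23.7% and 21.2% of all microRNAs tested and 68, 69 and 64 of the 88 abundant ones. The 2 in IR against WI went opposite ways, miR-99a-5p higher and miR-99b-5p lower in IR. Among the 88 abundant microRNAs in WI against Sham, where miR-10b-5p ranked highest, miR-100-5p ranked 2, miR-99a-5p 3 and miR-99b-5p 5 from the lowest. From Sham to IR, miR-99b-5p was called with genome-aligned totals (-0.69) and when the 10 most abundant were left out of the totals (-0.59), and miR-100-5p with genome-aligned totals (-0.63). Genome-aligned totals also gave a call for miR-99b-5p from WI to IR (-0.59).

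**Figure D5:**
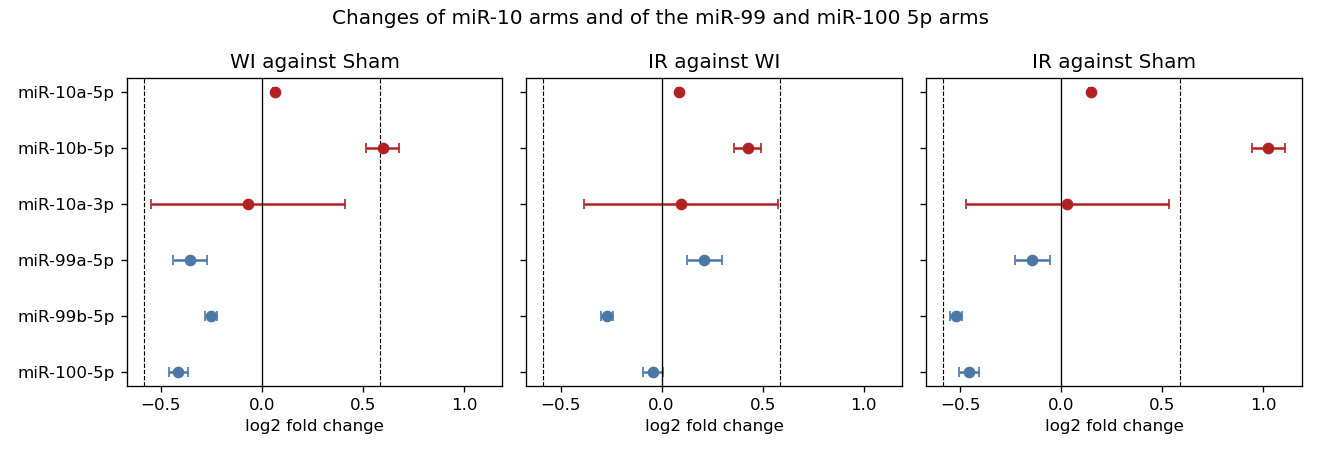
Log2 fold change (x axis) of the 3 measurable miR-10 arms (red) and of the miR-99 and miR-100 5p arms (blue) in each comparison, with 95% exact counting intervals; dashed lines mark 1.5-fold. MiR-10b-5p lies at 0.60, 0.43 and 1.02, whereas the 3 relatives lie below 0 in both comparisons with Sham. In IR against WI, miR-99a-5p lies above 0 (0.21), and miR-99b-5p (-0.27) and miR-100-5p (-0.044) below it.

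The microRNAs nearest in pattern were sought among 187 with at least 100 reads in every library, by distance in the plane of the log2 fold changes of WI against Sham and IR against WI. Those nearest to miR-10a-5p were miR-22-3p (distance 0.0038), miR-151-3p (0.015) and miR-19b-3p (0.034). MiR-10b-5p had no such close neighbour. The nearest were miR-144-3p, a red cell microRNA (distance 0.28), miR-23b-3p (0.29) and miR-181d-5p (0.29). With 3 libraries such distances describe these libraries only.

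Marker microRNAs of other cell types were set beside miR-10b-5p, which rose from Sham to WI and was highest in IR. In bulk tissue, more cells of a type and more RNA per cell cannot be told apart. The 3 red cell markers (miR-451a and both arms of miR-144) summed to 1246, 1196 and 2157 CPM, and all 3 were higher in IR than in Sham. In WI the sum was slightly lower than in Sham, through miR-451a (1037 CPM in Sham, 959 in WI). The other 2, both arms of miR-144, were higher in WI than in Sham, miR-144-3p with 79.8 and 107 CPM and miR-144-5p with 129 and 130. The 9 muscle markers summed to 6.82, 24.5 and 76.9 CPM, nearly all of it miR-133a-3p, with 27, 115 and 280 reads. This sum was higher at both steps, while 4 of the 9 markers were higher in WI than in Sham and 5 were higher in IR than in Sham.

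Of the markers that define muscle, miR-1a-3p had 0, 1 and 6 reads and miR-206-3p had 0, 0 and 1, and 4 of the 9 had no read in any library. The endothelial list (both arms of miR-126a) differed from Sham by 0.24 in WI on the log2 scale and by -0.13 in IR. The stromal list of 8 differed by 0.12 and -0.17, and the hepatocyte list (both arms of miR-122) by 0.24 and -0.054. The sums of these 3 lists were thus above Sham in WI, as miR-10b-5p was, and below it in IR. Single rows were mixed. Of the 8 stromal rows, 4 were higher than Sham in WI and 2 in IR, and miR-143-3p carried most of the sum. Of the 2 endothelial rows, 1 was higher than Sham in WI and 1 in IR. Both hepatocyte rows were higher than Sham in WI and lower in IR.

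The leukocyte list of 6 differed by -0.017 and -0.14, a sum carried by miR-142-5p with 2735, 2672 and 2342 CPM. Within it 2 of the 6 were higher in IR than in Sham. MiR-223-3p, a neutrophil and myeloid microRNA, had 435, 528 and 902 reads, or 110, 109 and 236 CPM. Sham and WI thus lay close together, with IR above both. The other arm of its hairpin, miR-223-5p, was lowest in IR, with 39, 55 and 22 reads, or 9.85, 11.3 and 5.75 CPM. The part of RNA from any of these cell types in the rise of miR-10b-5p was not tested.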

How the data were processed

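Small RNA was sequenced from mouse liver in 3 libraries, 1 per group, with groups read from the titles. The authors trimmed and length-selected the reads, aligned them with Bowtie 0.12.7 to the mouse genome (NCBIM37, also called mm9, in the methods, mm10 in the submitters' processing notes), used HTSeq to assign RNA classes, and deposited raw read counts per mature microRNA from miRDeep2. Pooling of mice within a library was not given in the sources used here.

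TMM factors (trimmed mean of M-values, edgeR 4.0.16, R 4.3.3) scaled the counts to CPM, scaled reads per 1000000. A two-sided Fisher's exact test (scipy 1.17.1) compared reads and scaled totals for every row with a read in the pair of libraries. Calls needed a fold change above 1.5 on log2(CPM + 0.1) and an unadjusted p under 0.01. Both thresholds are those of the study. The study names no pseudocount and defines its totals as mapped reads, whereas the totals scaled here were of microRNA reads. Without replicates edgeR's quasi-likelihood test could not be fitted. The procedure was tested on simulated counts that held counting error only, with planted changes well above the fold threshold. That test covers neither variation between animals nor changes near the threshold. Alternatives changed the scaling (among them DESeq2 1.42.0 size factors and totals of genome-aligned reads as the study gives them), pseudocount, read minimum, thresholds, test and the counting of near-identical arms.

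Named microRNAs were all miR-10 and miR-196 arms, all miR-99 and miR-100 arms, microRNAs sharing a seed with a member (none was found), the 3 nearest in pattern to each miR-10 arm with at least 100 reads in every library, and marker lists. The members and lists were chosen with earlier results of these data known. Mature sequences came from RefSeq (GRCm38.p6), which matched all 9 members and all 6 relatives, and hairpins were placed in NCBIM37 by exact match.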

Additional observations from a re-analysis of the deposited data

How the results depend on the processing

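No paired analysis was possible because each group has 1 library, and for the same reason no replicate could be left out. For each comparison 15 alternatives were run. The 1 arm called in WI against Sham, miR-10b-5p, became 0 arms with DESeq2 size factors, with library totals, with the 10 most abundant left out of the totals, at a fold change above 2, with edgeR's exact test at a coefficient of variation of 0.2 or 0.4, and with both 5p arms summed. The 1 called in IR against Sham became 0 at a coefficient of variation of 0.2 or 0.4 and with both arms summed, which by construction leaves no miR-10b-5p row. In IR against WI the count rose from 0 to 1 at the lower fold threshold tried. Of 48 recomputed counts and shares 37 stayed as reported.

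Changes of sign concerned small differences, none of them called. From Sham to WI, miR-10a-5p became -0.038 with library totals and -0.020 when the 10 most abundant were left out, and with genome-aligned totals miR-10a-3p became 0.086 and miR-99b-3p 0.015. From WI to IR, library totals gave 0.028 for miR-100-5p and 0.041 for miR-99b-3p, and genome-aligned totals gave -0.22 for miR-10a-3p, -0.24 for miR-10a-5p, -0.30 for miR-99a-3p and -0.11 for miR-99a-5p. From Sham to IR, miR-10a-3p became -0.034 when the 10 most abundant were left out and -0.14 with genome-aligned totals, which also gave -0.021 for miR-10a-5p. Of 132 fold changes of miR-10 arms over these settings, 115 kept direction and call. Settings that altered only the read minimum, the thresholds or the test leave a fold change as it was. There at most the call could change, so the count of 115 is not a measure of stable direction. Under the scalings and pseudocounts tried, no change of miR-10b-5p turned in sign. Depth limits the 6 arms at or under 3 reads, for which no change could be measured.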

Other observations

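GENCODE places 1 further microRNA hairpin inside the Hox clusters, Mir615 in the Hoxc cluster on chromosome 15 (102845341 to 102845432, NCBIM37), which was looked up after the values had been seen. Its 3p arm had 2 reads, both in IR, and its 5p arm had none. Of the 6 hairpins in the 4 clusters, those of miR-10 were thus the only ones with an arm above 3 reads in any library.

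The seed of miR-196, AGGUAGU, is also found in let-7a-5p, where it starts at base 3 in place of base 2. MiR-196a-5p and let-7a-5p differ at 15 positions when aligned from the 5′ end, well beyond the 1 mismatch allowed in the alignment.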
